A study of Mus musculus with 2 samples.

Results

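The 9 genes described here encode the proteins that receive a Hedgehog signal and carry it to the nucleus. They were chosen by name and by role, with earlier results of these data known, and are *Ptch1*, *Smo*, *Gli1*, *Gli2*, *Gli3*, *Hhip*, *Gas1*, *Boc* and *Cdon*. Of the 14450 genes with a usable tag in either library, 8 belong to this set, and *Hhip* had no listed tag. The tags come from digital gene expression (DGE) profiling, in which *Nla*III cuts cDNA at CATG sites and *Mme*I releases CATG with the 17 bases after it. A DGE tag is taken once from a transcript, so TPM, the copies of a tag in each 1000000 clean tags, counts transcripts and does not grow with transcript length.

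The 2 libraries come from mouse lines that were compared to follow the step from type B spermatogonia to primary spermatocytes. The type B spermatogonia behind GC-1spg came from a mouse aged 10 days and received the plasmid pSV3-neo. GC-2spd (ts) goes back to spermatocytes of an older donor, aged 6 weeks, and carries the SV40 large T antigen. Both grew in DMEM with 10% FBS, and both carry a viral transforming construct, so neither group is an untransformed germ cell. 1 library was made from each line. No difference therefore has a replicate check, and each test and interval compares these 2 libraries and covers the error of counting alone. Repeated PCR reads of a molecule are not separated, so the intervals can be too narrow even for that.

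The libraries held 5072149 clean tags for GC-1spg and 4726808 for GC-2spd (ts), so that 1 copy was worth 0.197 and 0.212 TPM. Where a pair of values is given without a line's name, GC-1spg comes first. The smallest copy number in each list was 2, and an unlisted tag can still have had a single copy. The germ cell label was checked against 23 markers, of which 4 were listed. *Uchl1* had 329 copies in GC-1spg against 66 in GC-2spd (ts), *Hspa2* 102 and 33, *Prdm9* 16 and 16, and *Spo11* 2 and 0. *Ddx4*, *Dazl*, *Zbtb16*, *Kit*, *Stra8*, *Sycp1* and *Sycp3*, also among the 23 markers, had no listed sense tag in either. For *Sycp3* only 2 of 6 reference tags belong to 1 gene. Markers of other cells were listed for 5 of 8 Sertoli, 3 of 7 Leydig, 4 of 4 peritubular myoid and 7 of 9 fibroblast genes. Calls here follow the thresholds given below, which called 11.7% of all genes higher and 7.84% lower. The germ cell list summed to 88.5 and 24.3 TPM, mostly from *Uchl1* (64.9 and 14.0 TPM) and *Hspa2* (20.1 and 6.98), both called lower. The fibroblast list summed to 3007 and 1615 TPM, of which *Col1a1* gave 2063 and 513. In it 2 genes were called higher (*Vim*, 984 and 2897 copies, and *Col3a1*, 50 and 120) and 2 lower (*Col1a1*, 10465 and 2425 copies, and *Dcn*, 710 and 2). *Col1a2* (605 and 907 copies), *Fn1* (2351 and 1211) and *Pdgfra* (85 and 74) were not called, and *Thy1* and *Lum* were at 0. The Sertoli list summed to 308 and 87.6 TPM. Within it *Wt1* (620 and 0 copies) and *Clu* (902 and 262) were called lower and *Gata4* (29 and 138) higher, and *Gata1*, *Rhox5* and *Fshr* were at 0. *Nr5a1*, with 0 and 188 copies, made up nearly all of the Leydig sum of 0.789 and 40.8 TPM, in which *Cyp17a1*, *Hsd3b1*, *Insl3* and *Lhcgr* were at 0. Likewise *Acta2*, with 50 and 555 copies, made up most of the peritubular myoid sum of 13.0 and 122 TPM, while *Des* had 11 and 4 copies. A 0 says little for *Rhox5* and *Insl3*, which each have only 1 reference tag that belongs to no other gene. The part of these cell types in the differences below was not tested.

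In Hedgehog signaling, the membrane protein Patched1 holds Smoothened inactive until a ligand binds Patched1. Smoothened then acts at the primary cilium to free the Gli transcription factors from Sufu and to stop the cutting of Gli3, and of Gli2 to a lesser degree, into repressor forms. *Gli1*, *Ptch1* and *Hhip* are themselves transcribed in response, and in the testis Desert hedgehog from Sertoli cells acts on Leydig and peritubular myoid cells.

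The values below rest on 33 distinct sense tags, with 853 copies in GC-1spg against 669 in GC-2spd (ts). The main tag of each listed gene is shown, with CATG in capitals and the 17 bases after it in lower case, since each value is little more than the copy number of these few sequences. For *Gli2*, *Gli3* and *Cdon* the second most frequent tag is added, because it held 13 or more copies in at least 1 library. The 11 tags are read 5′ to 3′ along the transcript:
Ptch1: CATGaataaagataatataac
Gas1: CATGaggaatccactcctgca
Cdon, first tag: CATGattttatattaaaagag
Cdon, second tag: CATGccttgtgctatattgaa
Boc: CATGccgcagactggagccac
Smo: CATGttatttcttcctcacat
Gli1: CATGaggtgcccagggatggg
Gli2, first tag: CATGctcaacttgtaaataag
Gli2, second tag: CATGctagaggcaaacttttg
Gli3, first tag: CATGaactctgccttggcttt
Gli3, second tag: CATGttagcggtccctcctag

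The first tag of each gene starts at the last CATG of an annotated transcript, in the 3′ UTR of its last exon. Coordinates are those of GRCm38, matched here to GENCODE M21. The *Ptch1* tag lies at chr13:63508339-63508359 in exon 23, only 32 bases before the end of the transcript. The *Gas1* tag is at chr13:60174710-60174730 in the single exon of the gene, 326 bases before the end. The *Boc* tag is at chr16:44485233-44485253 in exon 19, and the *Smo* tag at chr6:29761078-29761098 in exon 12. The *Gli1* tag is at chr10:127329983-127330003 in exon 13, the first *Gli2* tag at chr1:118834166-118834186 in exon 14, and the first *Gli3* tag at chr13:15729913-15729933 in exon 15. Both *Cdon* tags lie in exon 20, at chr9:35507613-35507633 and chr9:35507499-35507519.

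*Gas1* and *Gli2* were called lower in GC-2spd (ts), *Gli3* was called higher, and *Ptch1*, *Smo*, *Boc*, *Cdon* and *Gli1* were not called. A gene was called when the 2-sided Audic-Claverie test on its copies, adjusted over all 14450 genes by Benjamini-Hochberg, gave a false discovery rate (FDR) of 0.001 or less, together with an absolute log2 ratio of TPM of at least 1. Among all genes tested, 11.7% were called higher and 7.84% lower, 19.5% in either direction. Of the 8 listed genes of the set, 1 was called higher and 2 lower, and 8 genes are too few to set such shares against the background. Scaling by the trimmed mean of M values (TMM) shifted all log2 ratios by -0.17, called 18.9% of all genes and moved the share of higher genes among all calls from 59.8% to 47.2%, and the 3 calls in the set were the same under it.

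**Figure D1:**
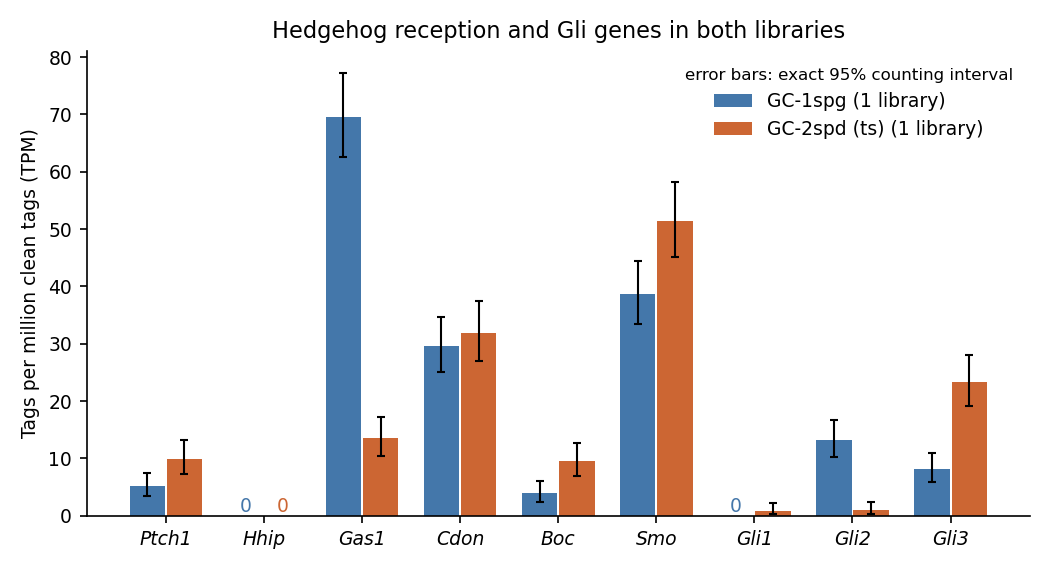
TPM of the 9 genes in the GC-1spg library (blue bars) and the GC-2spd (ts) library (orange bars), 1 library each, with exact 95% counting intervals as error bars. *Gas1* and *Gli2* stand far lower in GC-2spd (ts), *Gli3* stands higher, and a 0 marks a gene with no listed tag.

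The receptor *Ptch1* was low in both libraries. It had 26 copies in GC-1spg against 47 in GC-2spd (ts), or 5.13 TPM (exact 95% interval 3.35 to 7.51) and 9.94 TPM (7.31 to 13.2). The log2 ratio was 0.96 (0.24 to 1.71), above 0 but under the fold threshold, and the FDR threshold was not passed. Its tag nearest the 3′ end accounted for 18 and 44 of these copies. *Hhip*, a membrane protein that binds and sequesters Hedgehog ligands, had no listed tag in either library, although 48 of its 51 reference tags, the one nearest the 3′ end among them, belong to no other gene.

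Smoothened, the transducer that Patched1 restrains, had the most copies of the set in GC-2spd (ts). *Smo* had 196 copies in GC-1spg against 243 in GC-2spd (ts), or 38.6 TPM (33.4 to 44.4) and 51.4 TPM (45.1 to 58.3). The log2 ratio of 0.41 (0.13 to 0.69) was not called and fell to 0.24 under TMM. A single tag gave 187 and 228 of the copies. Another 5 listed tags also fit *Smo*, with 90 and 105 copies, but each fits at least 103 genes and is left out.

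The coreceptors *Gas1*, *Cdon* and *Boc* help Patched1 to bind the ligand, and their balance differed between the libraries. *Gas1*, a GPI-anchored protein first described through growth arrest, had 353 copies in GC-1spg against 64 in GC-2spd (ts), or 69.6 TPM (62.5 to 77.2) and 13.5 TPM (10.4 to 17.3). It had the highest level of the set in GC-1spg, and the interval of the next gene, *Smo*, did not reach it. The log2 ratio was -2.36 (-2.77 to -1.97), which is 5.14-fold lower in GC-2spd (ts), and *Gas1* was called lower in 12 of 13 alternative settings, the exception being edgeR's exact test with an assumed biological coefficient of variation (BCV) of 0.4.

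*Cdon*, an immunoglobulin and fibronectin repeat protein of the cell surface, was nearly level. It had 150 copies in GC-1spg against 151 in GC-2spd (ts), or 29.6 TPM (25.0 to 34.7) and 31.9 TPM (27.1 to 37.5). The log2 ratio was 0.11 (-0.22 to 0.45), and it turned to -0.06 under TMM. *Boc*, a close relative of *Cdon*, had 20 and 45 copies, or 3.94 TPM (2.41 to 6.09) and 9.52 TPM (6.94 to 12.7). Its log2 ratio of 1.27 (0.48 to 2.11) was over the fold threshold, but the FDR threshold was not passed, and *Boc* was called in none of the 13 alternatives either.

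The 3 coreceptors together had 523 copies in GC-1spg against 260 in GC-2spd (ts), or 103 and 55.0 TPM. *Gas1* made up 67.5% of these copies in GC-1spg (exact 95% interval 63.3 to 71.5) and 24.6% in GC-2spd (ts) (19.5 to 30.3). *Cdon* made up 28.7% (24.8 to 32.8) and 58.1% (51.8 to 64.1), and *Boc* 3.82% (2.35 to 5.84) and 17.3% (12.9 to 22.5). The leading coreceptor was thus *Gas1* in GC-1spg and *Cdon* in GC-2spd (ts), with the *Cdon* level itself within counting error between the lines. Shares of a whole move together. With 150 and 151 copies of *Cdon*, its larger share in GC-2spd (ts) follows from the fewer *Gas1* copies there. The larger share of *Boc* follows from them in part.

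**Figure D2:**
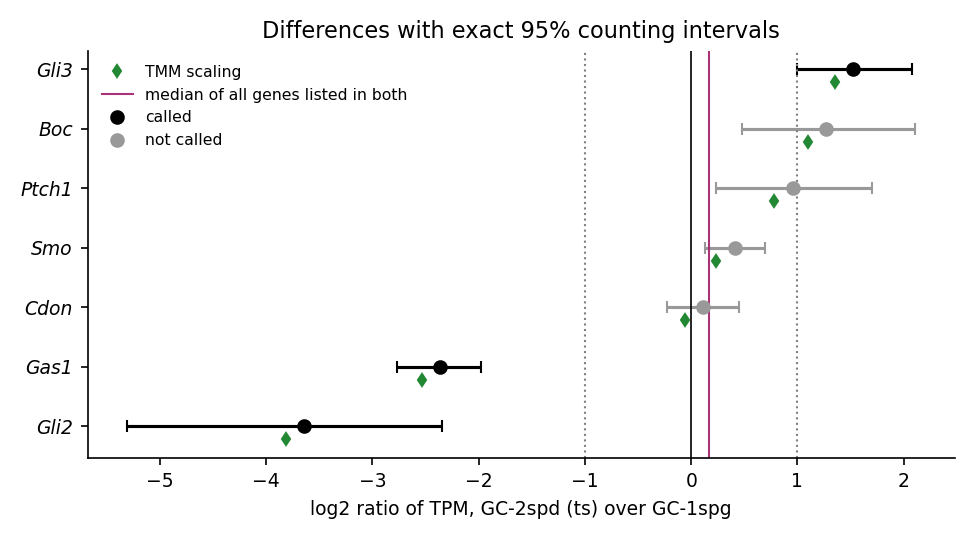
The log2 ratio of TPM, GC-2spd (ts) over GC-1spg, of the 7 genes listed in both libraries, with exact 95% counting intervals; black points were called, grey points were not, diamonds give the value under TMM, dotted lines mark the fold threshold and the vertical line at 0.16 is the median of all 11373 genes listed in both. *Gli2* and *Gas1* lie far to the left, and *Cdon* crosses 0 under TMM.

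The Gli transcription factors had a similar sum in both libraries but a different make-up. *Gli2*, the main activator of the pathway in many tissues, had 67 copies in GC-1spg against 5 in GC-2spd (ts), or 13.2 TPM (10.2 to 16.8) and 1.06 TPM (0.343 to 2.47). The log2 ratio was -3.64 (-5.31 to -2.35), 12.5-fold lower in GC-2spd (ts), with an interval that is wide because it rests on 5 copies in 1 of the libraries. *Gli3*, the main repressor when no ligand is present, had 41 copies in GC-1spg against 110 in GC-2spd (ts), or 8.08 TPM (5.80 to 10.97) and 23.3 TPM (19.1 to 28.0).

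The log2 ratio of *Gli3* was 1.53 (0.996 to 2.08), 2.88-fold higher in GC-2spd (ts). It was no longer called when only the CATG site nearest the 3′ end was counted, where it had a log2 ratio of 1.16, nor with an assumed BCV of 0.2 or 0.4. *Gli1*, an activator and itself a target of the pathway, had 0 listed copies against 4 in GC-2spd (ts), all from 1 tag. Set against 3 copies it was at least 1.43-fold higher in the GC-2spd (ts) library, and with 1 unlisted single copy allowed the bound was 0.905-fold, so no difference was detectable at this depth. The 3 genes together had 108 and 119 copies, or 21.3 and 25.2 TPM.

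*Gli2* made up 62.0% of the Gli copies in GC-1spg (exact 95% interval 52.2 to 71.2) and 4.20% in GC-2spd (ts) (1.38 to 9.53). The share of *Gli3* was 37.96% (28.8 to 47.8) and 92.4% (86.1 to 96.5). These intervals do not overlap between the libraries. With so few *Gli1* copies, the shares of *Gli2* and *Gli3* mirror each other and come from the same copies as their calls. They add no separate support. The tags count mRNA, and the full-length and repressor forms of the Gli proteins cannot be told apart by them. Nor can fewer cells with *Gli2* RNA be told apart from less *Gli2* RNA per cell in a bulk culture.

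**Figure D3:**
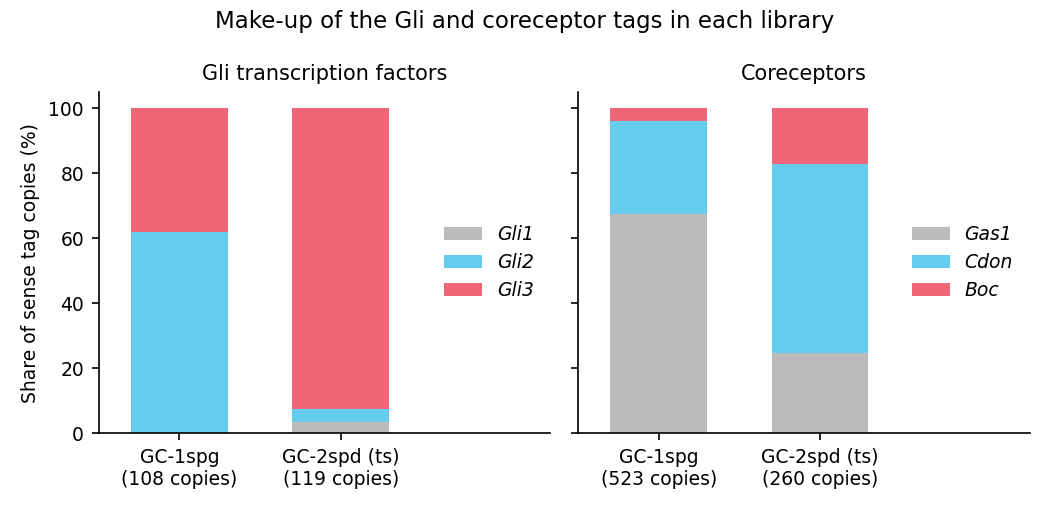
Share of sense tag copies in percent, stacked by gene, for the Gli factors (left; 108 and 119 copies) and the coreceptors (right; 523 and 260 copies) in each library. *Gli2* and *Gas1* take the largest share in GC-1spg, *Gli3* and *Cdon* in GC-2spd (ts).

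In order of level, GC-1spg ran from *Gas1* over *Smo*, *Cdon*, *Gli2*, *Gli3* and *Ptch1* to *Boc*. The exact intervals of neighbours overlapped for *Smo* and *Cdon*, and for each step from *Gli2* to *Boc*. In GC-2spd (ts) the order was *Smo*, *Cdon*, *Gli3*, *Gas1*, *Ptch1*, *Boc*, *Gli2* and *Gli1*, and the intervals of neighbours were apart between *Smo* and *Cdon*, *Gli3* and *Gas1*, and *Boc* and *Gli2*. The median log2 ratio was 0.41 over the 7 genes listed in both libraries and 0.46 with *Gli1* added at its bound, against 0.16 over all 11373 genes listed in both. The median hides the spread, since the 7 values ran from -3.64 to 1.53.

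The genes differed in how many CATG sites gave tags. *Smo* and *Gas1* drew 187 of 196 and 341 of 353 copies in GC-1spg from a single tag, while *Gli3* drew 24 of 41 from its first. Over both libraries *Gli3* had 9 distinct sense tags, and *Smo* and *Gas1* had 5 each. The first *Gli3* tag had 24 copies in GC-1spg against 50 in GC-2spd (ts), and the second, 1160 bases before the end of the transcript at chr13:15728867-15728887, had 13 and 35. A further 7 *Gli3* tags had 4 copies in GC-1spg against 25 in GC-2spd (ts) in all. Of these, 2 tags in the coding sequence had 12 copies, all in GC-2spd (ts), and 1 tag with 2 copies in GC-1spg lay in a transcript annotated as a retained intron.

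The second *Gli2* tag was far from the 3′ end. It had 15 copies in GC-1spg against 2 in GC-2spd (ts), and it lies in the 5′ UTR of exon 1 of the *Gli2-207* transcript, at chr1:119053310-119053330. In the longest transcript, *Gli2-201* with 14 exons, this is CATG site 50 from the 3′ end, 6348 bases away, and 8 of the 9 annotated *Gli2* transcripts contain it. Both *Gli2* tags were lower in GC-2spd (ts), the first with 52 and 3 copies. Which transcripts gave the tag in exon 1 cannot be told apart from 1 tag.

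The second *Cdon* tag was lower in GC-2spd (ts) while the *Cdon* sum stayed level, with no adjustment for the number of tags looked at. The first tag, 40 bases before the end of the transcript, had 100 copies in GC-1spg against 118 in GC-2spd (ts), with a log2 ratio of 0.34 (-0.06 to 0.74). The second, 154 bases before the end, had 33 and 14 copies and a log2 ratio of -1.14 (-2.15 to -0.19). The second tag held 22% of the *Cdon* copies in GC-1spg (exact 95% interval 15.7 to 29.5) and 9.27% in GC-2spd (ts) (5.16 to 15.1), intervals that are apart by a narrow gap.

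Antisense tags, which read from CATG sites of the same genes on the opposite strand, were also listed for 6 of the 9 genes, and they are not part of the values above. Some lie at sites with no listed sense tag, such as the second *Gas1* antisense tag, with 40 and 2 copies. *Gas1* had 110 and 13 antisense copies, a log2 ratio of -2.98 (-3.93 to -2.15). These made up 23.8% (19.95 to 27.9) and 16.9% (9.31 to 27.1) of its sense and antisense copies. Sense and antisense copies of *Gas1* were thus both lower in GC-2spd (ts), and the main antisense tag starts at the CATG site of the main sense tag. For *Cdon* the antisense copies were 35 and 5, or 18.9% (13.5 to 25.3) and 3.21% (1.05 to 7.32) of the total, and with both strands summed the *Cdon* log2 ratio was -0.14. In the other direction, *Smo* had 17 and 32 antisense copies and *Gli3* 21 and 36. *Ptch1* had 5 and 2 and *Boc* 0 and 2, and no antisense tag was listed for *Gli1*, *Gli2* or *Hhip*. No gene other than the one matched is annotated over any of these antisense tags.

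**Figure D4:**
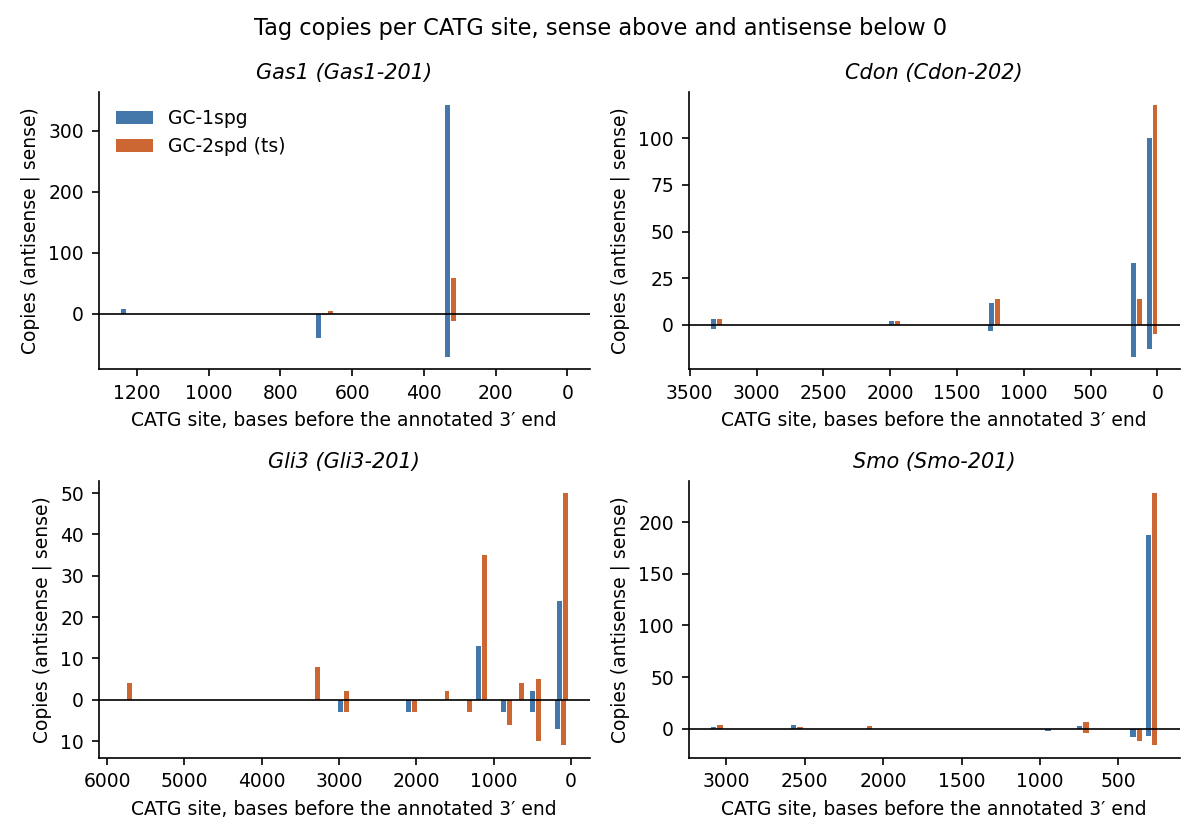
Copies of each tag of *Gas1*, *Cdon*, *Gli3* and *Smo* against the distance of its CATG site from the annotated 3′ end of 1 transcript, in bases, with sense copies above 0 and antisense copies below 0, and with the bars of GC-1spg (blue) and GC-2spd (ts) (orange) set side by side around each site; tags outside the transcript named are not drawn. *Gas1* and *Smo* draw most copies from 1 site each, *Gli3* on several, and the second *Cdon* site is taller in GC-1spg.

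Of the ligands that these receptors bind, only *Dhh* had more than 2 copies. Desert hedgehog had 24 copies in GC-1spg, or 4.73 TPM, and none listed in GC-2spd (ts), which is at least 7.46-fold lower against 3 copies and at least 4.71-fold lower with 1 unlisted copy of its tag allowed. *Dhh* was called lower. Its copies all came from CATGggtgttccttacaatcc at chr15:98893072-98893092, shown because the call rests on it alone. The tag lies in the 3′ UTR in exon 3 but at CATG site 9 from the 3′ end, 1941 bases away, and the span of *Rhebl1* on the same strand also covers it. No copy was listed at the *Dhh* site nearest the 3′ end, so that counting this site only left *Dhh* without a value. *Ihh* had 0 and 2 copies, and *Shh* had no listed tag in either library. *Lrp2*, a large endocytic receptor that also binds Hedgehog ligands, had 42 and 41 copies, a log2 ratio of 0.07 (-0.59 to 0.72).

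Of 6 genes for making and releasing the ligand, 5 were listed and 0 were called, beside 11.7% called higher and 7.84% lower of all genes tested. So few genes cannot be set against these shares. *Disp1*, which releases lipid-bearing ligand from the cell, had 133 copies in GC-1spg against 62 in GC-2spd (ts). Its log2 ratio of -0.999 (-1.46 to -0.55) fell just short of the fold threshold, and TMM scaling moved it to -1.17 and called it lower. *Hhat*, the acyltransferase for the ligand, had 7 and 3 copies, and *Disp2* 3 and 0. *Scube2* had 2 and 0 copies and *Scube3* 0 and 4, and *Scube1* was not listed.

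Among 23 genes that act below Smoothened, all 23 were listed, 3 were called higher and 0 lower, beside 11.7% and 7.84% of all genes tested. The called genes were *Prkaca* and *Prkacb*, catalytic subunits of protein kinase A, which phosphorylates Gli proteins, and *Tulp3*, which carries receptors into the cilium. *Prkaca* had 475 and 952 copies, a log2 ratio of 1.10 (0.94 to 1.27), *Prkacb* had 68 and 166, a log2 ratio of 1.39 (0.97 to 1.82), and *Tulp3* had 41 and 79, a log2 ratio of 1.05 (0.49 to 1.63). Under TMM only *Prkacb* was still called. The main inhibitor *Sufu*, which holds Gli proteins in the cytoplasm, had 91 and 96 copies and a log2 ratio of 0.18 (-0.25 to 0.61). *Kif7*, a ciliary kinesin, had 18 and 8 copies, a log2 ratio of -1.07 (-2.48 to 0.21), and *Gpr161*, a ciliary receptor that raises protein kinase A activity, had 31 and 59, a log2 ratio of 1.03 (0.38 to 1.71). Neither was called. The median log2 ratio over the 22 genes listed in both libraries was 0.48.

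The primary cilium, where Smoothened and the Gli proteins act, was represented by 24 genes, of which 23 were listed, 4 were called higher and 1 lower, beside the same 11.7% and 7.84% of all genes. *Dync2h1* and *Dync2li1*, subunits of the motor for transport back from the ciliary tip, had 15 and 76 copies and 17 and 48 copies, log2 ratios of 2.44 (1.63 to 3.35) and 1.60 (0.78 to 2.49). *Arl13b*, a ciliary GTPase, had 66 and 145 copies, a log2 ratio of 1.24 (0.81 to 1.68), and *Ofd1*, a centriole protein, 35 and 78, a log2 ratio of 1.26 (0.67 to 1.88). *Ift172*, a subunit of the transport particle, was the gene called lower, with 81 and 31 copies and a log2 ratio of -1.28 (-1.93 to -0.67). TMM left 3 of the genes called higher, without *Dync2li1*. The median log2 ratio over the 23 listed genes was 0.13, against 0.16 over all genes.

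Of 16 genes that have been reported as Hedgehog targets in some tissue, 14 were listed, 2 were called higher and 5 lower, beside 11.7% and 7.84% of all genes. *Nkx3-2* has no CATG tag in the reference and could not be listed, and *Nkx2-2* was not. *Foxf1*, a transcription factor of mesenchyme, had 4 and 29 copies, a log2 ratio of 2.96 (1.45 to 4.93), and *Snai1*, a regulator of cell adhesion, had 16 and 44, a log2 ratio of 1.56 (0.71 to 2.49). *Snai1* was not called under TMM. On the lower side, *Bmp4*, a growth factor, had 426 and 134 copies, a log2 ratio of -1.57 (-1.86 to -1.28), and *Cdk6*, a cell cycle kinase, had 833 and 153, a log2 ratio of -2.34 (-2.60 to -2.09).

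The other lower targets had no listed copy in GC-2spd (ts). *Hand2*, a transcription factor of limb and heart, had 478 copies in GC-1spg and was at least 148-fold lower against 3 copies, or at least 42.4-fold lower with 1 unlisted copy allowed for each of its tags. *Mycn* had 36 copies and was 11.2-fold, or 7.07-fold, lower by the same measures. The Notch ligand *Jag2* had 20 copies and was 6.21-fold, or 2.40-fold, lower. None of these ratios includes the counting error of the copies in GC-1spg. *Ccnd1* and *Ccnd2*, which encode D cyclins, had log2 ratios of 0.64 (0.35 to 0.93) and 0.58 (0.33 to 0.83) and were not called. *Ptch1*, *Gli1* and *Hhip*, the targets that belong to the pathway itself, had no call in either direction.

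**Figure D5:**
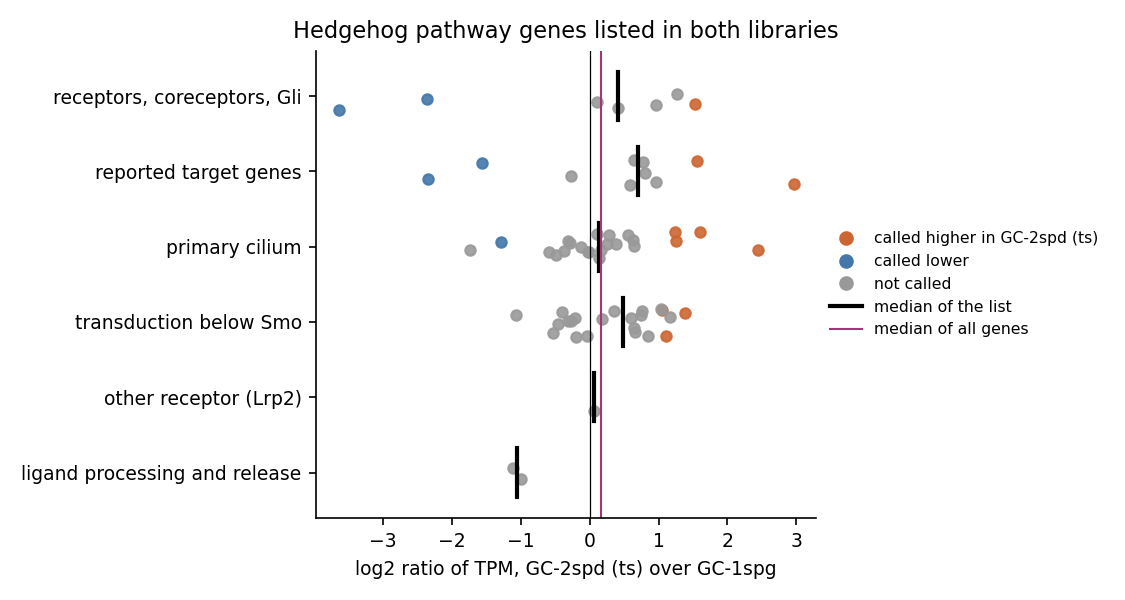
The log2 ratio of TPM, GC-2spd (ts) over GC-1spg, of the Hedgehog pathway genes listed in both libraries, 1 row per list, with genes called higher in orange, called lower in blue and not called in grey, a black bar at the median of each list and a vertical line at 0.16, the median of all genes. *Gli2* and *Gas1* lie at the far left of the top row, and *Foxf1* at the far right of the targets.

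Over the 6 lists together, 68 of 73 genes were listed, 9 were called higher and 7 lower, beside 11.7% and 7.84% of all genes tested. Under TMM 5 were called higher and 8 lower, beside 8.94% and 9.99% of all genes. With an assumed BCV of 0.4, 0 were called higher and 1 lower, *Hand2*, and 0 of the 9 receptor, coreceptor and Gli genes were called, where the test called 0.747% of all genes higher and 0.941% lower, 1.69% in either direction.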

How the data were processed

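The authors sequenced 1 DGE library per line, discarded adaptor, low quality and single copy tags, and deposited, for every tag left, the raw count and the TPM, which is the count in 1000000 clean tags. No aligner is named in the sources used here, and the authors' UniGene clusters were not used.

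The clean tags were compared with every CATG+17 tag, on both strands, of 141767 GENCODE M21 transcripts (GRCm38) of 55450 genes. At most 1 mismatch was allowed, exact matches first. Sense tags whose best matches belonged to 1 gene held 54.7% and 57.9% of the clean tags of GC-1spg and GC-2spd (ts). Their copies were added up for each gene and divided by all clean tags. The Audic-Claverie test compared the counts of the 2 libraries, with 0.01 TPM for a gene at 0 in the log2 ratio. edgeR's quasi-likelihood test and DESeq2 need replicates and could not be fitted. Exact intervals (Clopper-Pearson) are at 95%. Counts of 0 were set against 3 copies. They were also set against the upper 95% counting limit with 1 unlisted copy for each tag listed in the other library.

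The 9 genes are named whatever their value. Of the other lists, the ligands, *Sufu*, *Kif7*, *Gpr161* and every called gene are named, and further genes were named after their values were seen. 1 further gene was taken out of the lists and is not reported here. The 9 genes and the lists were chosen with earlier results of these data known. The 13 alternatives changed matching, strand, scaling, filter, test or assumed spread, and 1 more, for counts of 0, was added after seeing the data. Matching and tests ran in Python 3.11.15 with scipy 1.17.1, pandas 2.3.3 and numpy 2.4.6, plots in matplotlib 3.10.9, and edgeR 4.0.16 under R 4.3.3.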

Additional observations from a re-analysis of the deposited data

Results flagged for a closer look

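Antisense tags were not used in the comparisons, and in 5 of the 9 genes they exceeded 3 copies in a library. *Gas1* had 110 (GC-1spg) against 13 (GC-2spd (ts)) antisense copies. *Cdon* had 35 and 5, *Gli3* 21 and 36, *Smo* 17 and 32, and *Ptch1* 5 in GC-1spg. No library serves as a control for antisense tags here.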

How the results depend on the processing

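Of 103 log2 ratios of the 8 listed genes under 13 alternatives, 95 kept their direction and their side of the call. The filter, the binomial test and the assumed BCVs reuse the main log2 ratio, so direction could not change in them. *Gli1*, at 0 in GC-1spg, could not reverse either. The 95 is therefore not a count of independent checks. The reversals were those of *Cdon*, to -0.14 with antisense tags added, -0.0624 under TMM and -0.0521 under median of ratios scaling. *Gli3* lost its call with the site nearest the 3′ end only and with an assumed BCV of 0.2, leaving 0 genes of the set called higher, and *Gli3*, *Gli2* and *Gas1* lost theirs at a BCV of 0.4, leaving 0 higher and 0 lower. In the 6 other pathway lists, 5 genes were called higher and 8 lower under TMM, 1 higher and 5 lower at a BCV of 0.2, and 0 higher and 1 lower at 0.4. Over all 14450 genes, TMM called 1292 higher and 1443 lower, a BCV of 0.2 called 511 and 489, and 0.4 called 108 and 136. *Gli2* kept log2 ratios between -4.01 and -3.52, *Gas1* between -2.54 and -2.35 and *Gli3* between 1.16 and 1.60. No paired analysis was possible because each line has 1 library. Depth limits *Gli1*, *Hhip*, *Shh* and *Ihh*, at 4 or fewer copies in each library, where single copies were removed before deposit.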
